A study of Mus musculus with 2 samples.

Results

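The Iroquois (Irx) homeobox genes were examined in RNA of embryonic mouse facial prominences, the swellings of the head that give rise to the jaws, nose and palate. The 6 members, Irx1 to Irx6, were chosen by symbol, and each matched 1 of the 43346 gene rows measured. Both libraries belong to 1 group: facial prominences of healthy B6NCrl embryos at 13.5 days, males and females pooled, for which the labels name no mutation and no treatment. They are labelled as biological replicates 1 and 2. Each has its own biosample identifier and both carry 1 shared donor identifier, so a difference between them may come from the biosample or from the library. Nothing further says how the pools were made. With 1 group there was no contrast of conditions and no p-value, and the comparisons below are between genes, between the 2 gene clusters and between the 2 libraries (n = 2).

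Irx genes encode transcription factors of the TALE homeobox class, in which the homeodomain, the part that binds DNA, carries an extended loop. They are the vertebrate counterparts of the Drosophila Iroquois genes and pattern the heart, limbs, nervous system, kidney and face. Mammals keep them in 2 linked clusters, Irx3-Irx5-Irx6 and Irx1-Irx2-Irx4, in which Irx3 and Irx1, Irx5 and Irx2, and Irx6 and Irx4 are regarded as counterparts. Mutations of human IRX5 cause Hamamy syndrome, which alters the face and the bones.

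On GRCm38 the Irx3-Irx5-Irx6 cluster spans 882 kb of chromosome 8. It holds Irx3 (ENSMUSG00000031734.12, 91798525 to 91802067, minus strand), Irx5 (ENSMUSG00000031737.10, 92357625 to 92376286, plus strand) and Irx6 (ENSMUSG00000031738.10, 92674288 to 92680956, plus strand). The Irx1-Irx2-Irx4 cluster spans 1312 kb of chromosome 13. It holds Irx1 (ENSMUSG00000060969.8, 71957921 to 71963723, minus strand), Irx2 (ENSMUSG00000001504.10, 72628820 to 72634198, plus strand) and Irx4 (ENSMUSG00000021604.11, 73260479 to 73269608, plus strand).

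The part of the coding sequence that makes these genes a family is shown first, because reads from near-identical stretches are the ones a quantifier could share between members. Each line is the ungapped stretch of 63 codons (189 bases) with the most residues shared with Irx3, which holds most of the homeobox. It was read 5′ to 3′ on the coding strand from the GENCODE M21 sequence of the transcript of each gene that took the most counts. Capitals mark the 149 bases that are the same in all 6 genes.
Irx3: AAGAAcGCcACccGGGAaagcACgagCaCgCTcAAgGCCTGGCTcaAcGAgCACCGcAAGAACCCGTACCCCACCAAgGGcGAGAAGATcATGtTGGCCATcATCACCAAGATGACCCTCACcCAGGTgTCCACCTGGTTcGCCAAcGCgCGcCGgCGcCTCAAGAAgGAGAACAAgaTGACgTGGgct
Irx5: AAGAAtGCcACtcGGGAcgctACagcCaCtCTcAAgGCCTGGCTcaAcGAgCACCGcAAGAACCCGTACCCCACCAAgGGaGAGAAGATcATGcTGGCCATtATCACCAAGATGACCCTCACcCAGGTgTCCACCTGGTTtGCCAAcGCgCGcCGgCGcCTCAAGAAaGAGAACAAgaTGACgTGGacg
Irx6: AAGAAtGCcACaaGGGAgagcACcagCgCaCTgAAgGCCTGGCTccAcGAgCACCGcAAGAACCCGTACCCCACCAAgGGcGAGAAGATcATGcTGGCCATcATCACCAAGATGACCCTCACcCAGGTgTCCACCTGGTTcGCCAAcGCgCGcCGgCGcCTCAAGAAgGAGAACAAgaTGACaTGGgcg
Irx1: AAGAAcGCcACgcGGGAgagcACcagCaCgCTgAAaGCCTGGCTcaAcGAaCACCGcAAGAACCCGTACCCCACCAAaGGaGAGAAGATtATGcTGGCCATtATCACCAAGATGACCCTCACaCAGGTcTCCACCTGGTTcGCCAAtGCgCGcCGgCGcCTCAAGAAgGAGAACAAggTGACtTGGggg
Irx2: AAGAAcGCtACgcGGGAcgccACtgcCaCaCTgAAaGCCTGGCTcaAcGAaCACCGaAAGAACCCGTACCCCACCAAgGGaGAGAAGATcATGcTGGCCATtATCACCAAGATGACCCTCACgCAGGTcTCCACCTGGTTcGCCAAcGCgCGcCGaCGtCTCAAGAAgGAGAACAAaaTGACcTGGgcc
Irx4: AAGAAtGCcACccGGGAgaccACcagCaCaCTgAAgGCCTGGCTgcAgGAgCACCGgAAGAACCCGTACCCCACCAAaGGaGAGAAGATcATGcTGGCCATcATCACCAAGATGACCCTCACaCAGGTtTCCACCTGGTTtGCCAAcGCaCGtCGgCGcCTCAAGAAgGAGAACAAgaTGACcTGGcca
The stretch lay in exon 2 of Irx3 (chr8:91800484-91800672), exon 2 of Irx5 (chr8:92359639-92359827) and exon 4 of Irx6 (chr8:92677248-92677436). In the other cluster it lay in exon 2 of Irx1 (chr13:71959980-71960168), exon 2 of Irx2 (chr13:72630676-72630864) and exon 5 of Irx4 (chr13:73267535-73267723). Identity between members ranged from 86.2% of bases (Irx2 and Irx4) to 93.7% (Irx3 and Irx6). Of the 63 codons, 56 encoded the same residue in all members. All pairs of members, counterparts or not, differed mostly at the last base of a codon. Among counterparts this held for 15 of the 18 bases that differed between Irx3 and Irx1, 19 of 20 between Irx5 and Irx2, and 13 of 17 between Irx6 and Irx4. Among other pairs it held for 21 of 26 between Irx2 and Irx4 and 11 of 19 between Irx5 and Irx6. The residue was shared at 61 codons by Irx3 and Irx1, at 62 by Irx5 and Irx2 and at 59 by Irx6 and Irx4. Other pairs shared it at 57 (Irx5 and Irx6) to 61 codons (Irx3 and Irx6). Outside this stretch the members are distinct genes of 1317 to 1545 coding bases. The deposited gene counts of Irx5, Irx6, Irx1, Irx2 and Irx4 were whole numbers in both libraries, so they held no fraction of a read. Those of Irx3 were 1352.81 in replicate 1 and 743.86 in replicate 2. Sharing of reads between members was not tested further.

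**Figure D1:**
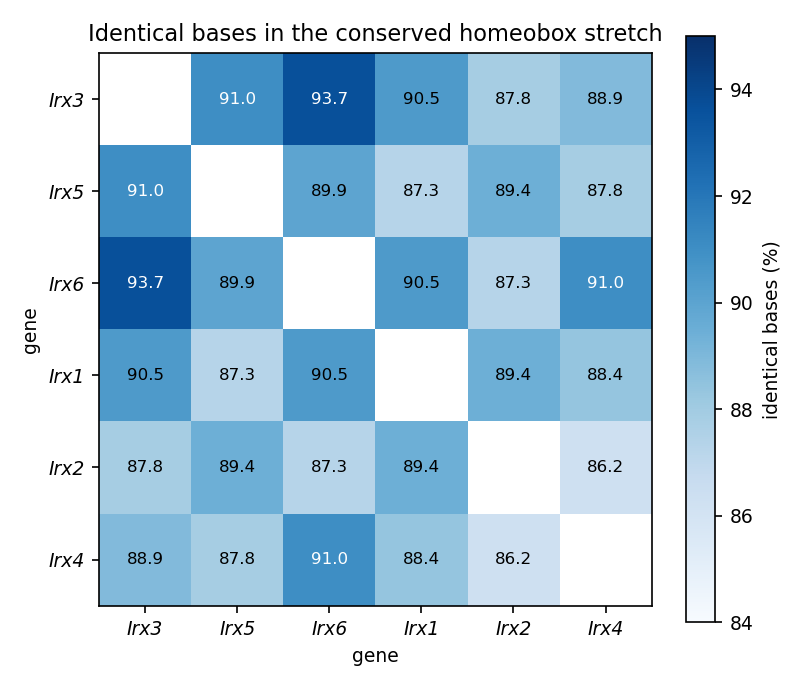
Percentage of identical bases between each pair of Irx genes (rows and columns) in the 189-base homeobox stretch. The darkest cell is Irx3 with Irx6 at 93.7%, and the lightest is Irx2 with Irx4 at 86.2%.

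By mean deposited TPM Irx3 and Irx5 were the most abundant members and Irx6 the least, although in replicate 2 Irx2 stood above Irx5. TPM is transcript abundance corrected for length, as a part of 1000000 per library. The detection threshold was 1 TPM in both libraries. By this rule 5 of 6 members were detected, against 60.9% of 21474 protein-coding gene rows. Because the tissue was sequenced in bulk, fewer cells expressing a gene and less RNA per cell cannot be told apart.

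Irx3, which acts together with Irx5 in the mouse limb bud and heart, was at 25.6 TPM in replicate 1 and 18.5 TPM in replicate 2, from 1353 and 744 counts. Its 95% credibility intervals, as deposited, were 23.6 to 26.3 and 16.6 to 19.2 TPM. Its mean of 22.0 ± 5.05 TPM (SD, n = 2) was exceeded by 27.8% of protein-coding genes. Irx5, the gene of Hamamy syndrome, was at 20.8 TPM in replicate 1 and 16.6 TPM in replicate 2, from 1012 and 617 counts. Its mean was 18.7 ± 2.95 TPM. Both genes were higher in replicate 1, and in each library Irx3 stood just above Irx5. Irx6, known for its role in bipolar cells of the mouse retina, was at 0.79 TPM in replicate 1 and 0.80 TPM in replicate 2. These values rest on 50 and 41 counts, with intervals of 0.59 to 1.03 and 0.58 to 1.07 TPM. The intervals of Irx6 include 1 TPM in both libraries, so the data do not place it clearly on either side of that threshold.

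In the other cluster, Irx1, a gene of lung, kidney and digits, was at 4.41 TPM in replicate 1 and 2.51 TPM in replicate 2, from 212 and 92 counts. Its mean of 3.46 ± 1.34 TPM was exceeded by 52.8% of protein-coding genes. The intervals of the libraries, 3.73 to 4.89 and 1.97 to 2.95 TPM, did not overlap. The same was true of Irx3 and of Irx5, whose intervals were 19.0 to 21.5 TPM in replicate 1 and 14.8 to 17.3 TPM in replicate 2. The share of all gene rows without overlap between the libraries was not computed. Irx2, expressed with Irx1 in many tissues, was at 12.7 TPM in replicate 1 and 17.3 TPM in replicate 2, from 443 and 387 counts. Its mean was 15.01 ± 3.21 TPM. Unlike Irx1, it was higher in replicate 2, although its intervals of 10.9 to 15.3 and 14.7 to 20.3 TPM overlapped. Irx4, known as a gene of the heart ventricle, was at 10.0 TPM in replicate 1 and 8.94 TPM in replicate 2, from 495 and 336 counts. Its mean was 9.48 ± 0.764 TPM.

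**Figure D2:**
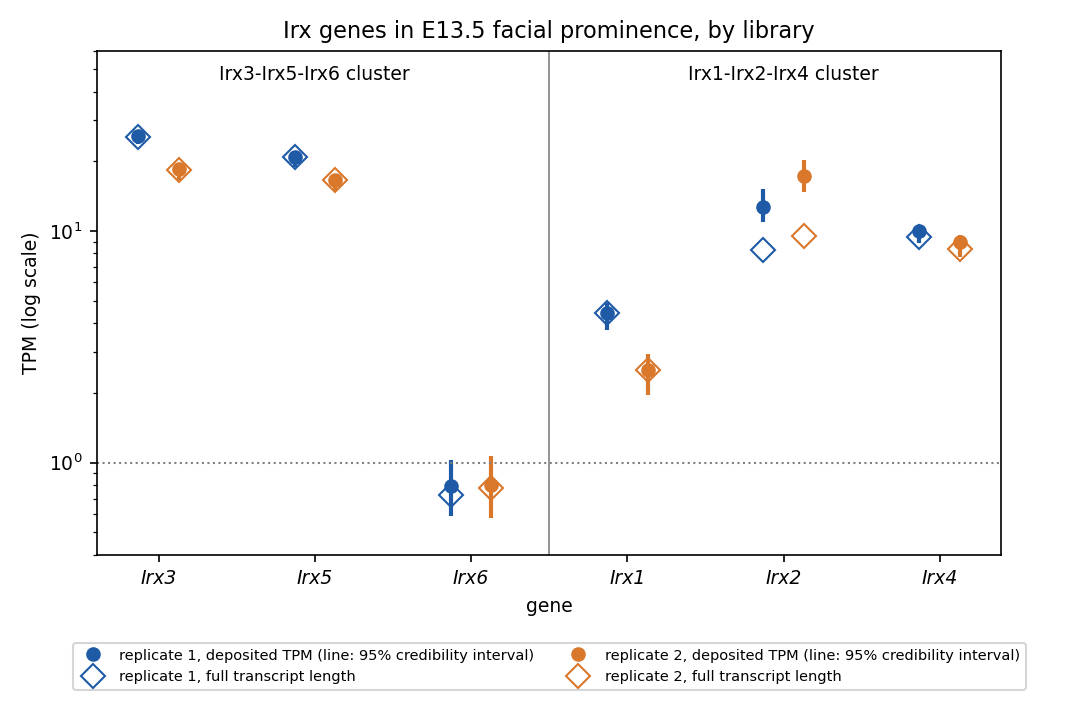
TPM (log scale) of each Irx gene in replicate 1 (blue) and replicate 2 (orange). Filled points are deposited values with their 95% credibility intervals as lines, open diamonds are the same counts divided by the length of the longest annotated transcript, and the dotted line is 1 TPM. The points of Irx3 lie highest in both libraries, those of Irx5 come next in replicate 1 and those of Irx2 in replicate 2, and Irx6 lies just below the dotted line, with intervals that cross it. The diamonds leave the points for Irx2, at 8.29 and 9.50 TPM.

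The TPM of Irx2 depended on a short transcript model. A model of 559 bases (chr13:72632597-72633770), annotated without a start codon, lies wholly in exons of the full transcript of 2625 bases, mostly in its 3′ untranslated region. It took 9.14% of the Irx2 counts in replicate 1 and 14.6% in replicate 2. After division by its short length it took 32.6% of Irx2 TPM in replicate 1 and 44.0% in replicate 2, against 55.5% and 43.0% for the full transcript, so the model with the larger share differed between libraries. In replicate 2 the TPM intervals overlapped, at 4.77 to 10.4 for the short model and 6.27 to 8.04 for the full transcript, so neither led beyond its error. A retained-intron model took 10.0% and 11.5% of the TPM. When all Irx2 counts were divided by the length of the full transcript, an alternative chosen after seeing the data, Irx2 was at 8.29 TPM in replicate 1 and 9.50 TPM in replicate 2. On that scale its mean of 8.89 ± 0.854 TPM was close to the 8.88 ± 0.730 TPM of Irx4. The other members moved little. Irx4 moved most in TPM, to 9.40 in replicate 1 and 8.37 in replicate 2.

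The other members with several annotated transcripts had 1 clear leader or too few counts. The Irx3 transcript of 2597 bases carried 97.0% ± 1.08 of Irx3 TPM, and a second that encodes the same homeobox stretch carried the rest. The Irx4 transcript of 2384 bases carried 76.4% ± 1.81 of Irx4 TPM, and another that differs in the first exon carried 23.6%. The longer Irx6 transcript of 3370 bases carried 46.8% of Irx6 TPM in replicate 1 and 81.3% in replicate 2, but the intervals of its TPM, 0.17 to 0.62 and 0.40 to 0.87, overlapped. Irx5 and Irx1 had 1 transcript each in the deposited tables.

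**Figure D3:**
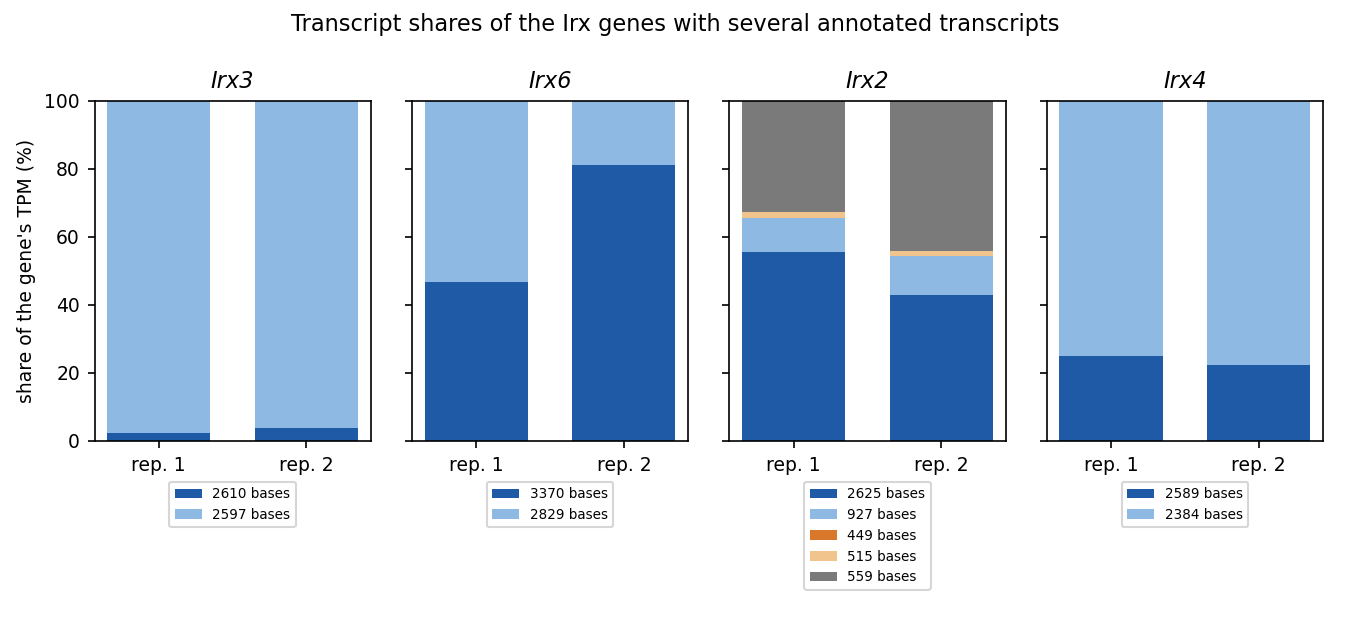
Share of each gene's TPM (percent) carried by each annotated transcript, in replicates 1 and 2, for Irx3, Irx6, Irx2 and Irx4. Transcripts are named by their deposited length. The grey part of the Irx2 bars is the model of 559 bases, at 32.6% and 44.0%.

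The order of the members was compared pair by pair. A pair was called apart where the deposited intervals did not overlap in either library and the order was the same in both. This held for 12 of 15 pairs. The share of pairs of other genes that pass the same rule was not computed, so the count is no trait particular to the Irx genes. The 3 pairs not apart were Irx3 with Irx5, Irx3 with Irx2 and Irx5 with Irx2, so the rule does not order these genes at the top. In replicate 1 alone all 3 pairs were apart, with Irx3 above Irx5 and Irx5 above Irx2. Below these genes came Irx4, then Irx1, then Irx6. The log2 ratio was 1.20 ± 0.22 for Irx3 over Irx4, 0.97 ± 0.11 for Irx5 over Irx4 and 0.65 ± 0.43 for Irx2 over Irx4. With a further demand of a 2-fold difference the calls of Irx5 over Irx4 and Irx2 over Irx4 were lost. With the full transcript length the call of Irx2 over Irx4 was lost (0.00 ± 0.26) and both Irx3 over Irx2 (1.29 ± 0.47) and Irx5 over Irx2 (1.07 ± 0.37) were apart. Irx2 then shared the place of Irx4 below Irx3 and Irx5.

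Of the 3 counterpart pairs, 2 stood at clearly different levels and their directions were opposite. Irx3 exceeded Irx1 by 2.71 ± 0.24 (log2 ratio of TPM), or 5.80-fold in replicate 1 and 7.35-fold in replicate 2. Irx6 was below Irx4, with a log2 ratio of -3.57 ± 0.13. Both pairs were apart. For Irx5 over Irx2 the ratio was 0.71 in replicate 1 and -0.058 in replicate 2, so its direction was not fixed by the deposited TPM. The higher counterpart therefore lay in the Irx3-Irx5-Irx6 cluster for Irx3 and in the Irx1-Irx2-Irx4 cluster for Irx4.

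Between clusters, 7 of 9 pairs were apart, and within clusters 5 of 6, again without a share for other genes. The member of the Irx3-Irx5-Irx6 cluster was higher in 4 of them, all with Irx3 or Irx5 against Irx1 or Irx4, and lower in 3, all with Irx6. The summed TPM of Irx3, Irx5 and Irx6 was 47.2 in replicate 1 and 35.9 in replicate 2. That of Irx1, Irx2 and Irx4 was 27.2 and 28.7. The log2 ratio of the sums was 0.80 in replicate 1 and 0.32 in replicate 2, with a mean of 0.56 ± 0.34. Irx3 and Irx5 carried that direction: without Irx3 the mean ratio was -0.53 and without Irx5 it was -0.31. With the full transcript length it was 0.95 ± 0.20. As the mean of log2(TPM + 1) over the members of each cluster, the difference was 0.048. All these ratios share the same 2 libraries.

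The libraries held 28542452 (replicate 1) and 22719352 (replicate 2) estimated counts on gene rows, and a count of 0 would allow up to 0.105 and 0.132 CPM (counts scaled by library total) in them. The 5 mesenchyme markers, led by Msx1 and Alx1, and the 5 surface epithelium markers, led by Krt14 and Krt5, were all detected. Of markers of other tissues that use Irx genes, 3 of 5 for brain, 1 of 4 for kidney (Six2), 2 of 4 for heart atrium and 0 of 2 for lung were detected in both libraries, and the kidney gene Umod was listed at 0. The libraries differed in markers of the face as well as in those of heart, liver and lung. With TMM scaling the log2 ratios of the epithelium markers, replicate 1 over replicate 2, ran from -0.55 (Epcam) to 0.37 (Krt5). Those of the mesenchyme markers ran from -0.22 (Pdgfra) to 0.24 (Msx1). The 7 ventricle markers summed to 15.4 TPM in replicate 1, with 2 at 1 TPM or more, and to 87.5 TPM in replicate 2, with 7. The 6 liver markers summed to 4.07 TPM in replicate 1, with 1 at 1 TPM or more, and to 240.9 TPM in replicate 2, with 6. In replicate 1 the ventricle list was led by Tnnt2 at 9.17 TPM and Tnni3 at 4.22 TPM, with Myl2 at a count of 0. Beside these values Irx4 was at 10.0 TPM in replicate 1 and 8.94 TPM in replicate 2, and its scaled log2 ratio, replicate 1 over replicate 2, was 0.27 with TMM and -0.29 with spike-in totals. Replicate 1 held more of the lung gene Sftpc, at 3.22 TPM (48 counts) in replicate 1 and 0.18 TPM (2 counts) in replicate 2, while Nkx2-1 was at 0.04 and 0.12 TPM. With TMM scaling Irx1, Irx3, Irx5 and Irx4 were all higher in replicate 1, the direction of Sftpc and not of Nkx2-1. Of the face markers, Krt5, Krt14, Trp63, Msx1, Twist1 and Prrx1 also had that direction, and Epcam, Cdh1, Pdgfra and Alx1 had the other. The intervals of Irx2 and Irx6 included equal levels. The part of heart, liver or lung RNA in the levels and library differences of the Irx genes was not tested.

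Between the libraries, 1 of 6 members, Irx1, was past 1.5-fold. The background was 13.3% of 17726 gene rows with a mean count of 10 or more, and 3.23% of the 12731 rows with a mean of 100 or more, where 5 members lie. Irx1 was 1.88-fold higher in replicate 1 (exact Clopper-Pearson 95% interval 1.47 to 2.43, counts scaled with TMM). Irx3 was 1.49-fold higher (1.36 to 1.63), Irx5 1.34-fold (1.21 to 1.48) and Irx4 1.20-fold (1.05 to 1.39) in replicate 1, whereas with spike-in totals as the scale Irx5 and Irx4 turned to the other side (log2 ratios of -0.14 and -0.29). On the spike-in scale Irx2 was the member past 1.5-fold (-0.66), Irx1 was at 0.35 and Irx3 at 0.011. Irx6 was at 0.996-fold (0.646 to 1.54) and Irx2 at 0.935-fold (0.814 to 1.07), with intervals that include equal levels. The median log2 ratio of gene rows was 0.016 with TMM and -0.54 with spike-in totals. A scaling shifts every gene by 1 constant, so ratios relative to that median are the same under each by construction, at 0.90 for Irx1, 0.56 for Irx3, 0.41 for Irx5, 0.25 for Irx4, -0.02 for Irx6 and -0.11 for Irx2. The intervals cover counting error only, since reads that carry no molecular identifiers need not stand for separate molecules. For Irx2 the log2 ratio was -0.10 by scaled counts and -0.44 by deposited TPM.

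**Figure D4:**
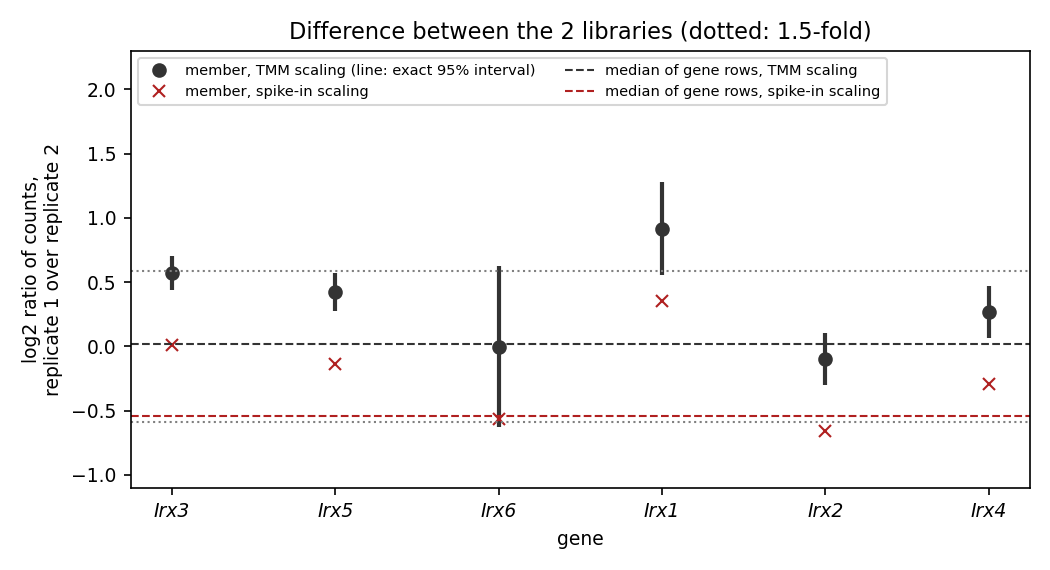
Log2 ratio of scaled counts, replicate 1 over replicate 2, for each Irx gene. Points are TMM-scaled ratios with exact 95% counting intervals, crosses are ratios scaled by spike-in totals, dashed lines are the median of gene rows under each scale, and dotted lines mark 1.5-fold. Irx1 is the one point past a dotted line, at 0.91, and Irx2 the one cross, at -0.66.

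No other protein-coding gene lies inside either cluster, and the long non-coding genes beside the Irx genes differed widely in level. Crnde, a long non-coding gene which starts 1504 bases away from Irx5 and runs the other way, was at 29.3 TPM in replicate 1 and 19.4 TPM in replicate 2. It stood above Irx5 in both libraries. With TMM scaling Crnde was higher in replicate 1, like Irx5, by 1.66-fold (1.41 to 1.96). The log2 ratio with TMM was 0.73 for Crnde and 0.42 for Irx5, and spike-in totals shift every gene by -0.56. On the spike-in scale Irx5 was therefore at -0.14, whereas Crnde stayed higher in replicate 1. Irx3os overlaps Irx3 over 1653 bases on the opposite strand and was at 1.41 and 1.28 TPM. The labels and headers do not say whether strand was kept, so reads of Irx3 and Irx3os in the overlap may have been exchanged. Both genes had fractional counts in replicates 1 and 2, at 1352.81 and 743.86 for Irx3 and 66.19 and 45.14 for Irx3os. Some of their reads were therefore assigned in part, and the level of Irx3os rests on that estimate. Of the other 5 non-coding genes measured inside the Irx3-Irx5-Irx6 cluster, each was at 0.07 TPM or less in both libraries.

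Irx2 also has a non-coding neighbour on the other strand, Gm20554, with 255 bases between their starts. It was at 0.83 TPM in replicate 1 and 0.67 TPM in replicate 2, from 13 and 8 counts, far below Irx2 (12.7 and 17.3 TPM). The sequence that separates this unequal pair is shown because it lies upstream of both. It is the RefSeq window of 250 bases before the Irx2 start (GRCm38.p6, chr13:72628570-72628819, plus strand), with CpG dinucleotides in capitals.
Irx2: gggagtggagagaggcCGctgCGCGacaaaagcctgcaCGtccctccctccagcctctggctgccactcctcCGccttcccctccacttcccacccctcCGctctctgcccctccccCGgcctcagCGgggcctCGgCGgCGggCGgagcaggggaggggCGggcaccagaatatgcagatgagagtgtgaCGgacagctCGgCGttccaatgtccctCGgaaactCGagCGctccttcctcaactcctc
The letters CG (which read the same on both strands) occur 19 times, and 19.7% of 32851 RefSeq promoter windows of this length hold as many or more. RefSeq windows matched 3 of the 6 members. The window of Irx3 held 13 CpG (31.5% of promoters hold as many) and that of Irx4 22 (14.8%), against a median of 6 over all windows. The Irx3 window follows the RefSeq start and lies inside the first exon of the longer GENCODE transcript.

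Protein-coding genes that flank the clusters within 1 Mb ranged from 0 TPM to above every Irx gene. Fto, whose introns hold enhancers known to act on Irx3, was at 80.3 and 85.3 TPM in replicates 1 and 2. Past Irx6, the matrix metalloproteinase gene Mmp2 was at 164 and 191 TPM. With the same TMM scaling, Fto was at 1.00-fold between the libraries (0.963 to 1.04), and Mmp2 at 0.922-fold (0.896 to 0.949). Next to Irx4 came Ndufs6, a gene of mitochondrial complex I, at 292 and 319 TPM. On the far side of Irx1 no protein-coding gene lies within 1 Mb. In these flanks 9 of 18 protein-coding genes beside Irx3-Irx5-Irx6 and 12 of 18 beside Irx1-Irx2-Irx4 were detected, against the 60.9% of all protein-coding rows.

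**Figure D5:**
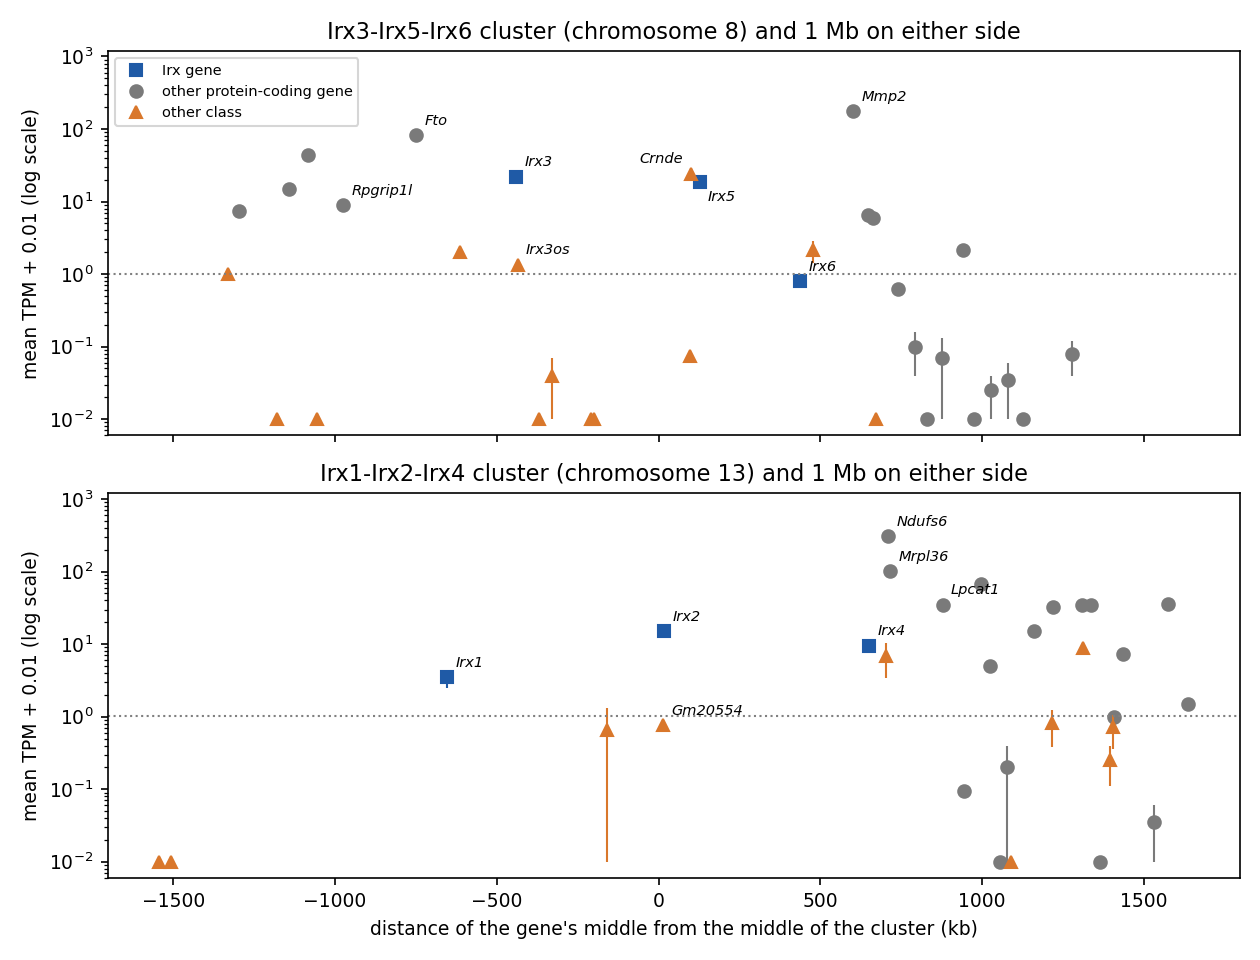
Mean TPM of the 2 libraries plus 0.01 (log scale) of measured genes against the distance of the gene's middle from the middle of the cluster (kb), with thin lines joining the libraries. Squares are Irx genes, circles other protein-coding genes, triangles other classes, and the dotted line is 1 TPM. Crnde sits on Irx5, Gm20554 lies below Irx2, and the stretch left of Irx1 holds no detected gene.

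Among the other genes of the TALE class, Irx3 and Irx5 stood in the middle and Irx1 and Irx6 at the bottom. All 12 listed genes of the Meis, Pbx, Pknox, Tgif and Mkx groups were detected, with a median of 25.9 TPM, where the median of detected protein-coding genes was 18.9 TPM. Ranked together by mean deposited TPM, Irx3 was at place 7 of 18, Irx5 at 8, Irx2 at 11, Irx4 at 14, Irx1 at 17 and Irx6 at 18. The place of Irx2 depends on its short transcript model. With the full transcript length its 8.89 TPM lay below the deposited 12.9 of Pbx2 and 11.8 of Mkx, which were not rescaled. The highest was Tgif1, a transcriptional repressor, at 72.7 ± 1.23 TPM, followed by its relative Tgif2 at 53.96 ± 0.742 and by Meis1, a partner of Pbx proteins, at 40.8 ± 6.92.

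Genes known to act with Irx5 were present as well. The Trps1 protein, a zinc finger repressor, was reported to bind human IRX5, and its gene was at 123 ± 8.71 TPM. Gata3, another such partner, was at 19.6 ± 4.70 TPM, close to the level of Irx5. Cxcl12, a chemokine gene that Irx5 represses in Xenopus, was at 184 ± 42.5 TPM, and its receptor gene Cxcr4 at 3.74 ± 0.778. All 4 were detected. Of the 5 Hedgehog genes, which interact with Irx3 and Irx5 in the mouse limb bud, 4 were detected, led by the transcription factor genes Gli3 at 26.9 ± 3.36 TPM and Gli2 at 15.9 and 18.1 TPM in replicates 1 and 2, and the ligand gene Shh was at 0.83 ± 0.014. In zebrafish, Irx genes hold back cartilage at the hyoid joint of the face. Of 8 joint and early cartilage genes 7 were detected, led by the cartilage collagen gene Col2a1 at 263 ± 46.7 TPM and the cartilage regulator Sox9 at 99.95 ± 27.0, and the jaw joint gene Nkx3-2 was at 0.26 and 0.04 TPM. Likeness of pattern to other genes was not computed, because 2 libraries of 1 group give a single ratio per gene.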

How the data were processed

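RNA over 200 nt (10 ng) of 2 biosamples was sequenced. Each library had a deposited gene table and transcript table. Per the file headers, expected counts and posterior mean counts are the authors' estimated reads per feature, deposited TPM and FPKM are their length-corrected abundances, and the upper TPM credibility bounds are a signal in TPM. The deposited posterior SD of the counts, treated as a score, and the deposited isoform percent columns were not needed. Per the deposited notes the assembly is mm10 with annotation GENCODE M4. The aligner, the quantifier and the strandedness are not given in the sources used here.

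Genes were named and placed by GENCODE M21 (GRCm38, which is mm10), matched on the identifier without its version: 42462 of 43346 identifiers matched, and models can differ between releases. Spike-in rows (6.27% and 4.45% of all 30451502 and 23777465 counts in replicates 1 and 2), 26248 number-only rows (0.000171% and 0.000151%) and 1 further row stayed out of library sizes. Spike-ins are in the TPM total (13.4% and 9.68%), which lowers gene TPM, more so in replicate 1. Effective transcript length is the length minus 99 bases.

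Expected counts were rounded to whole numbers and scaled with edgeR 4.0.16 (TMM). DESeq2 1.42.0 size factors, gene-row totals and spike-in totals were alternatives. Intervals are 95% exact Clopper-Pearson from scipy 1.17.1. In counts of 43346 genes simulated with Poisson error alone, the interval held the true 2-library ratio for 185 of 200 genes changed 2-fold and 970 of 1000 unchanged genes. That setting holds no other spread between libraries, so it cannot show how the intervals do on the real libraries. Of the genes that are no members, those named are the highest 2 to 4 or the undetected ones of a list, and those inside or next to the clusters. The members and lists were chosen with earlier results of these data known. The result of 1 marker list is not reported here.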

Additional observations from a re-analysis of the deposited data

How the results depend on the processing

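Of 85 alternative values of 19 results, 64 were classed as the same. A count was the same within 1.5-fold of the main count, even where its members changed. A ratio or share was the same within the SD of the libraries. A library ratio was the same where its interval kept its side of equal levels or still included them. Leaving out a library passes the SD rule by construction unless the sign turns. The unfiltered count of members past 1.5-fold repeats the main value. The 64 therefore do not measure how robust the results are. Detection gave 5 members without either replicate, 6 at 0.5 TPM and 4 at 5 TPM. Pairs apart ranged from 12 to 15 without 1 replicate, and were 10 with a further demand of 2-fold (losing Irx5 over Irx4 and Irx2 over Irx4), 14 with counts not divided by length and 13 with the full transcript length, an alternative chosen after seeing the data, with exact Poisson intervals; the leading transcript by counts and the detected neighbours without 1 replicate were chosen then too. The log2 ratio of cluster sums (0.56) ranged from 0.32 to 0.80 without 1 replicate. It was 0.93 with counts not divided by length, 0.95 with the full transcript length, 0.048 as a mean of log2(TPM + 1), -0.53 without Irx3, -0.31 without Irx5, 1.68 without Irx2 and 1.16 without Irx4. These last 4 follow from leaving out an abundant member. The ratio of Irx5 to Irx2 ranged from -0.058 to 0.71 without 1 replicate, turning round without replicate 1, and was 0.93 with counts not divided by length and 1.07 with the full length. With spike-in totals the library ratio was -0.14 for Irx5 and -0.29 for Irx4, and the member past 1.5-fold was then Irx2 (-0.66) and not Irx1 (0.35). The cause was not tested. At 2-fold 0 members were past the threshold. The leading transcript was the same in both libraries for 2 of 4 members by TPM and for 4 by counts not divided by length. Between 29 and 30 neighbouring genes were detected without 1 replicate, against 27 with both. Leading transcript shares have no value across libraries once 1 is left out. No paired analysis was possible because there is 1 group. Irx6 rests on 41 to 50 counts, which limits its level and its transcript shares.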
